A study of Mus musculus with 6 samples.

Results

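The 39 genes described here are G2 and M phase genes, which act when a cell enters and completes division. They were chosen by name, *Plk1* and *Mki67* among them, from the gene FPKM table, and all 39 were found among its 54532 genes. FPKM is the number of fragments on a gene per kilobase of gene length and scaled to library size. The study asked what the loss of *Srsf1*, a gene for a splicing factor, does to gene expression in the foetal ovary. RNA of whole ovaries of C57BL/6 mice at 16.5 dpc (days post-coitus) was sequenced in 6 libraries, 3 of Ctrl and 3 of *Srsf1* cKO. The cKO mice carry the *Stra8-GFPCre* transgene and *Srsf1* Fl/Fl, an allele in which loxP sites flank exons 2 to 4, and the labels call Ctrl wild type. *Stra8* drives Cre in germ cells at the start of meiosis, so the somatic and blood cells of the ovary are not its target. The sources used here do not say how many animals gave each library, so p-values measure the spread between libraries.

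Cyclin B and its kinase CDK1 start mitosis, Polo-like and Aurora kinases build the spindle, and the spindle checkpoint holds anaphase until every kinetochore is attached. The anaphase-promoting complex then destroys cyclin B, and the central spindle splits the cell. In the ovary at this age, oocytes are in meiotic prophase and do not divide, whereas somatic cells and foetal blood cells do, and several of these genes also serve the meiotic divisions. Their transcription peaks late in the cell cycle through the MuvB core with B-MYB and FOXM1, which acts at a promoter element named CHR (cell cycle genes homology region), often beside CCAAT boxes bound by NF-Y.

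Promoter windows of 300 bases, from 250 before to 50 after the start site, were taken from RefSeq on GRCm38.p6. They were found for 32 of the 39 genes, in 34 windows, and not for *Ccna2*, *Cdc25c*, *Aurkb*, *Incenp*, *Tpx2*, *Kif20a* and *Foxm1*. The CHR letters TTTGAA, searched on both strands, were in the windows of 23 of the 32 genes (71.9%), against 20.2% of all genes with windows. Counted by window the share was 73.5%, against 17.9% of all 32851 windows. CCAAT, also on both strands, was in 79.4% of the genes' windows against 37.4% of all windows, and both motifs stood together in 64.7% against 6.95%. The letters TTCCCGC of the E2F core, which mark S phase genes, were in 2.94% of the windows against 4.60% of all, and in 38.6% of 44 windows of S phase genes. In the first window of each gene, 22 of 29 CHR matches began within 50 bases of the start site. The second windows of 2 genes, *Prc1* and *Ect2*, overlap their first ones and hold the same matches. A match is a description of the letters and was not tested for binding.

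The following stretches show how the motifs lie in genes whose values are described below, with TTTGAA and CCAAT, or its reverse complement ATTGG, in capitals. *Nek2* and *Bub1* have CCAAT boxes but no TTTGAA in the window. *Plk1* and *Ncapg* have 1 TTTGAA match each, and *Mki67*, *Ccnb2* and *Cdk1* have 2 each, of which the first of *Ccnb2* lies outside the stretch. They are *Nek2* (chr1:191821413-191821487, plus strand), *Ncapg* (chr5:45669745-45669905, plus strand), *Plk1* (chr7:122159375-122159434 and chr7:122159455-122159475, plus strand), *Mki67* (chr7:135716464-135716579, minus strand), *Ccnb2* (chr9:70421540-70421654, minus strand), *Cdk1* (chr10:69352913-69353002, minus strand) and *Bub1* (chr2:127831860-127831959, minus strand), each read 5′ to 3′ along the gene.
Nek2: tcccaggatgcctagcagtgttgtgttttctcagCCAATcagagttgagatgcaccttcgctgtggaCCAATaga
Ncapg: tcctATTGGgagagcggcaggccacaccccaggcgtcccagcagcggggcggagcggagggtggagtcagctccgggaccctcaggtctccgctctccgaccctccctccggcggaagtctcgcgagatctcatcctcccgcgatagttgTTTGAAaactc
Plk1, before the start site: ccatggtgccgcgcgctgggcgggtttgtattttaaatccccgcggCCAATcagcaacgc
Plk1, after the start site: cagcgccgcgTTTGAAttcgg
Mki67: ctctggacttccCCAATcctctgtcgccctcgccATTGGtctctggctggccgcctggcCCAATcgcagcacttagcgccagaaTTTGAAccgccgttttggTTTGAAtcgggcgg
Ccnb2: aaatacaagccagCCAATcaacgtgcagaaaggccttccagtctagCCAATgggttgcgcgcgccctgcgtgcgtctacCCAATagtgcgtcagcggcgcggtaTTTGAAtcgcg
Cdk1: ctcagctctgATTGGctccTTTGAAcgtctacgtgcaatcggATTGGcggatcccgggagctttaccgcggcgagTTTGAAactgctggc
Bub1: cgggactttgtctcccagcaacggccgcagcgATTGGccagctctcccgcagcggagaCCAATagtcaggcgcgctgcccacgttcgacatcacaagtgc

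**Figure D1:**
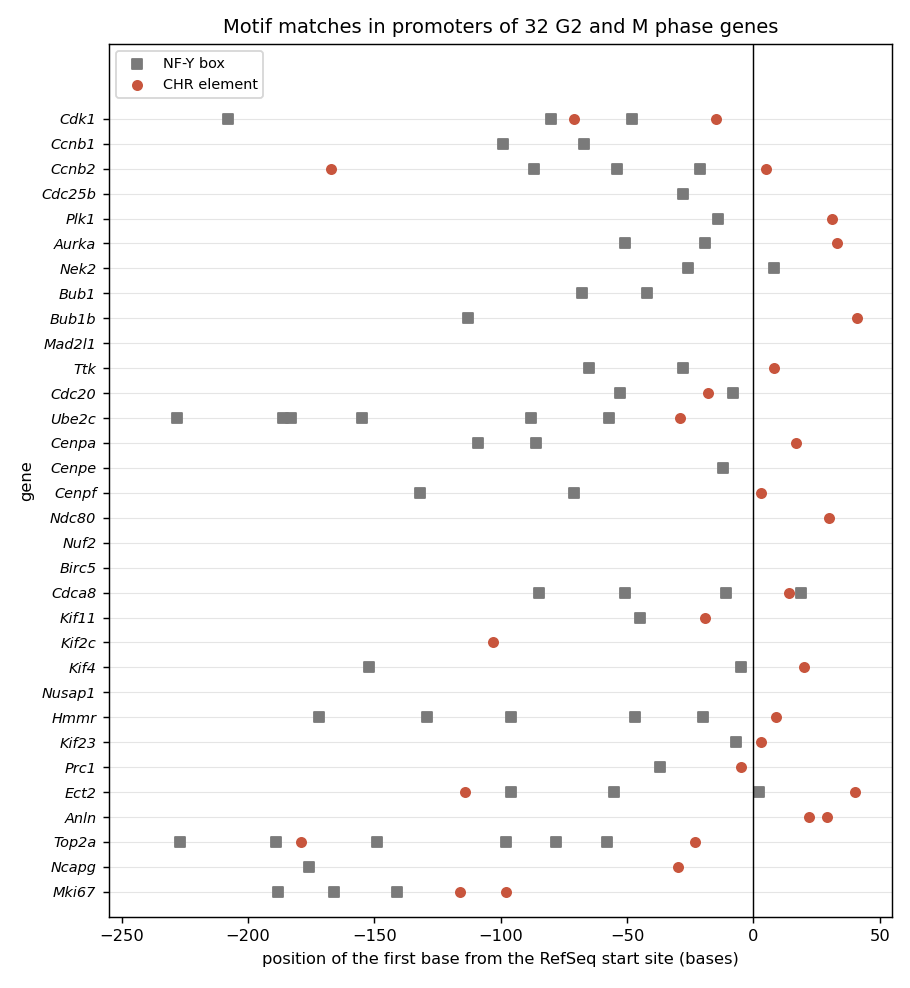
Start of each CHR match (circles) and each CCAAT match (squares, labelled NF-Y box), in bases from the start site, in the first RefSeq window of 32 G2 and M phase genes. CHR matches gather around the start site. Of the CCAAT matches 56 of 59 lie before it, as do 250 of the 300 bases of each window.

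The 6 libraries held between 14212164 and 16784241 reads on genes. *Srsf1*, the targeted gene, measured 80.2, 70.1 and 63.1 FPKM in Ctrl and 32.4, 37.0 and 36.4 FPKM in cKO, lower in every cKO library than in every Ctrl library. Expression was compared with limma on log2(FPKM + 1) for the 17180 genes whose mean was at least 0.5 FPKM, and a gene was counted at an unadjusted p below 0.05, the limit the study used. Of all genes tested, 460 (2.68%) were higher and 301 (1.75%) lower in cKO at that limit, and 0 (0%) passed at an adjusted p below 0.05. The targeted gene *Srsf1* did not pass after adjustment either. Its log2 fold change ± standard error was -0.99 ± 0.13 (limma, unadjusted p = 0.000158, adjusted p = 0.497). Levels of meiotic prophase and erythroid markers differed widely between libraries of the same group, as given below.

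All 39 G2 and M phase genes were expressed, with mean levels from 5.40 FPKM for *Cdc25c* to 57.2 FPKM for *Mki67*, and all entered the test. At the unadjusted limit 4 were lower in cKO, namely *Nek2*, *Incenp*, *Cdc25c* and *Ncapg*, which is 10.3% of the genes beside 1.75% of all genes. None was higher at that limit, beside 2.68% of all genes. None passed after adjustment, where limma gave between 0.978 and 0.999. Limma voom on the reads recovered from FPKM also gave 0 adjusted calls. At the unadjusted limit voom had 5 genes lower, 12.8% beside 1.64% of all genes, and 0 higher beside 2.58%. The log2 fold change was below 0 for 31 of the 39 genes (79.5%), against 52.1% of all genes tested, and the median was -0.32 beside -0.01 for all genes tested. In 7 genes each cKO library lay below each Ctrl library, or 17.9% beside 4.10% of all genes. These were the 4 above with *Kif20a*, *Nuf2* and *Foxm1*. In 0 genes each cKO library lay above each Ctrl library, beside 4.59% of all genes. In RNA of whole ovaries, fewer cells of a type and less RNA per cell cannot be told apart.

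Levels also differed between the libraries of one group. Ctrl 1 held the highest level of 27 of the 39 genes (69.2%), against 18.9% of all genes tested, and cKO 2 held the lowest level of 25 (64.1%), against 16.2%. On the log2 scale centred on the mean of the 6 libraries, the 39 genes averaged 0.50, 0.03 and -0.12 in Ctrl 1 to 3 and -0.12, -0.40 and 0.12 in cKO 1 to 3. Ctrl 1 was the high library and cKO 2 the low one, with the other 4 libraries in between. Without Ctrl 1 only *Nek2* passed the unadjusted limit, 2.56% of the 39 genes beside 2.22% of all genes lower in that fit, the median of the 39 genes became -0.11 and 26 genes were below 0. Without cKO 2 the median was -0.20, 27 genes were below 0, and 4 genes were lower and 4 higher at the limit, each 10.3% of the 39, beside 6.03% and 8.48% of all genes. Without Ctrl 3 the count of lower genes was 10, made up of *Aurka*, *Aurkb*, *Birc5*, *Ccna2*, *Ccnb2*, *Cdc25c*, *Cdca8*, *Incenp*, *Mki67* and *Plk1*, or 25.6% beside the 628 genes (3.66%) lower among all genes in that fit. Without Ctrl 2 only *Cdc25c* passed, as lower, 2.56% of the 39 genes beside 0.949% of all genes in that fit. In 24 genes the log2 fold change was below 0 whichever library was left out, in 4 it was above 0 each time, and in 11 it changed sign.

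**Figure D2:**
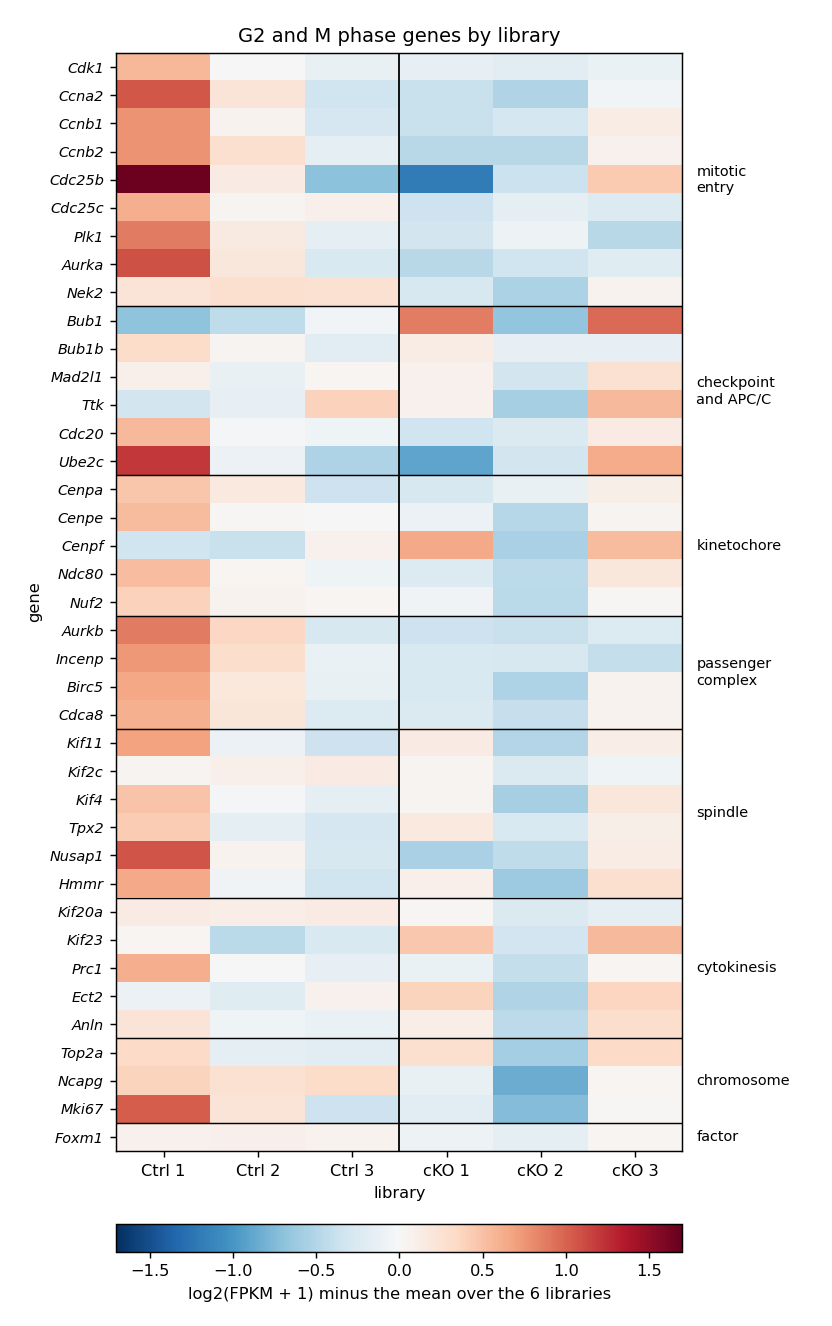
Level of the 39 genes in each library as log2(FPKM + 1) minus the gene's mean over the 6 libraries, in rows by role. Most rows are red in Ctrl 1 and blue in cKO 2, and *Bub1*, *Cenpf*, *Kif23* and *Ect2* are red in cKO 1 and cKO 3.

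Of the kinases, cyclins and phosphatases of mitotic entry, 9 of 9 had a log2 fold change below 0, from -0.74 to -0.30 with a median of -0.58, and 2 (22.2%) passed the unadjusted limit as lower, beside 1.75% of all genes. Their summed level was 360.3, 201.3 and 147.6 FPKM in Ctrl 1 to 3 and 125.5, 136.6 and 181.5 FPKM in cKO 1 to 3. The range of the sum thus overlapped between groups through Ctrl 3 and cKO 3.

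*Plk1* (ENSMUSG00000030867, chr7:122159439-122169873, plus strand) encodes the Polo-like kinase that acts at centrosomes, kinetochores and the central spindle. It measured 31.9, 18.8 and 15.02 FPKM in Ctrl 1 to 3 and 13.3, 15.9 and 11.9 FPKM in cKO 1 to 3. Ctrl 1 stood far above the rest, and the groups overlapped because cKO 2 lay above Ctrl 3. The mean was 21.9 ± 8.85 FPKM in Ctrl and 13.7 ± 2.02 FPKM in cKO (SD, n = 3 each). Its log2 fold change ± standard error was -0.58 ± 0.27 (limma, unadjusted p = 0.0697, adjusted p = 0.978), and it ran from -0.80 without Ctrl 3 to -0.29 without Ctrl 1. Without Ctrl 3 the unadjusted p was 0.0194, the only one of those 6 fits in which *Plk1* passed the limit. The study itself, which tested counts with DESeq2, names *Plk1* as downregulated in cKO ovaries at this age. It also reports lower *Plk1* by RT-qPCR, a separate measurement that is not part of the values here.

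*Nek2* (ENSMUSG00000026622, chr1:191821444-191833050, plus strand), a kinase that splits the centrosomes at mitotic entry, was close to constant in Ctrl, at 6.72, 6.96 and 6.90 FPKM. It measured 4.47, 3.55 and 5.88 FPKM in cKO, each below all Ctrl libraries. The ratio of the means was 0.675, with 6.86 ± 0.126 FPKM in Ctrl and 4.63 ± 1.17 FPKM in cKO (SD, n = 3 each). The fitted log2 fold change ± standard error was -0.50 ± 0.17 (limma, unadjusted p = 0.0220, adjusted p = 0.978). *Nek2* kept the unadjusted limit in 3 of the 6 fits with a library left out, losing it without Ctrl 2, Ctrl 3 or cKO 1, where p was 0.0628, 0.0541 and 0.0581.

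*Cdc25c* (ENSMUSG00000044201), a phosphatase that activates CDK1, measured 8.59, 5.44 and 5.60 FPKM in Ctrl and 3.86, 4.57 and 4.32 FPKM in cKO. All 3 cKO libraries lay below the Ctrl libraries, and Ctrl 1 stood apart from the other Ctrl libraries. Its 116 to 250 reads per library included the lowest count of the 39 genes. Its log2 fold change ± standard error was -0.50 ± 0.18 (limma, unadjusted p = 0.0302, adjusted p = 0.978). With the replicate number as a block the unadjusted p was 0.0598, and without Ctrl 1, cKO 1 or cKO 3 it was 0.0727, 0.0892 and 0.0630. Without Ctrl 1 the log2 fold change was -0.31.

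*Cdc25b* (ENSMUSG00000027330, chr2:131186949-131198497, plus strand), the phosphatase that starts CDK1 activation, spread more than any other of the 39 genes. Its levels were 86.0, 29.1 and 15.8 FPKM in Ctrl and 11.0, 20.1 and 36.3 FPKM in cKO, a 7.80-fold range. Ctrl 1 lay above all cKO libraries and cKO 1 below all Ctrl libraries, and the other 4 libraries overlapped. Its log2 fold change ± standard error was -0.74 ± 0.65 (limma, unadjusted p = 0.295, adjusted p = 0.978). It was -0.09 without Ctrl 1, -1.27 without Ctrl 3, -0.33 without cKO 1 and -1.15 without cKO 3, and did not pass in any of these fits.

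*Aurka* (ENSMUSG00000027496, chr2:172356190-172370535, minus strand), the Aurora kinase of the spindle poles, measured 33.6, 17.7 and 12.6 FPKM in Ctrl and 10.8, 11.9 and 13.1 FPKM in cKO. The cKO libraries were close together, and cKO 3 lay above Ctrl 3. Its log2 fold change ± standard error was -0.68 ± 0.32 (limma, unadjusted p = 0.0756, adjusted p = 0.978), and without Ctrl 1 it was -0.31. The unadjusted p was 0.0119 without Ctrl 3 and from 0.106 to 0.168 in the other 5 fits with a library left out. *Ccnb2*, a B-type cyclin and the most highly expressed gene of this group, measured 80.1, 56.5 and 41.3 FPKM in Ctrl and 33.5, 33.4 and 49.1 FPKM in cKO, with a log2 fold change of -0.58. Only cKO 3 reached into the Ctrl range. The log2 fold changes of *Ccna2*, *Ccnb1* and *Cdk1*, the remaining cyclins and their kinase, were -0.63, -0.37 and -0.30, none past the limit.

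The chromosomal passenger complex, which corrects faulty kinetochore attachments and acts in cytokinesis, had 4 of 4 genes below 0, with log2 fold changes from -0.65 to -0.39. *Incenp* (ENSMUSG00000024660, chr19:9872297-9899533, minus strand), its scaffold, measured 34.4, 25.3 and 18.6 FPKM in Ctrl and 16.8, 16.6 and 15.1 FPKM in cKO. The Ctrl libraries were spread out while the cKO libraries were alike, and the groups did not overlap. The mean was 26.1 ± 7.94 FPKM in Ctrl and 16.2 ± 0.926 FPKM in cKO (SD, n = 3 each), a ratio of 0.620. Without Ctrl 1 the log2 fold change was -0.40. The fitted log2 fold change ± standard error was -0.62 ± 0.22 (limma, unadjusted p = 0.0248, adjusted p = 0.978). It kept the limit only without Ctrl 3 or cKO 2, and the other 4 fits with a library left out (Ctrl 1, Ctrl 2, cKO 1 and cKO 3) gave unadjusted p from 0.0505 to 0.0688.

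*Aurkb* (ENSMUSG00000020897, chr11:69045647-69051664, plus strand), the kinase of the complex, measured 24.6, 16.6 and 10.5 FPKM in Ctrl and 9.81, 9.69 and 10.8 FPKM in cKO. The cKO libraries were close to Ctrl 3 and lay below Ctrl 1 and Ctrl 2. Its log2 fold change ± standard error was -0.65 ± 0.28 (limma, unadjusted p = 0.0535, adjusted p = 0.978). The unadjusted p was 0.0459 after quantile normalization, 0.0478 with voom, 0.0467 among protein-coding genes alone, 0.0620 with the replicate block and 0.00294 without Ctrl 3. In the other 5 fits with a library left out it was from 0.0863 to 0.136, and without Ctrl 1 the log2 fold change was -0.36. *Birc5*, the survivin subunit and the most highly expressed of the 4, had a log2 fold change of -0.48, and *Cdca8*, the borealin subunit, of -0.39.

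**Figure D3:**
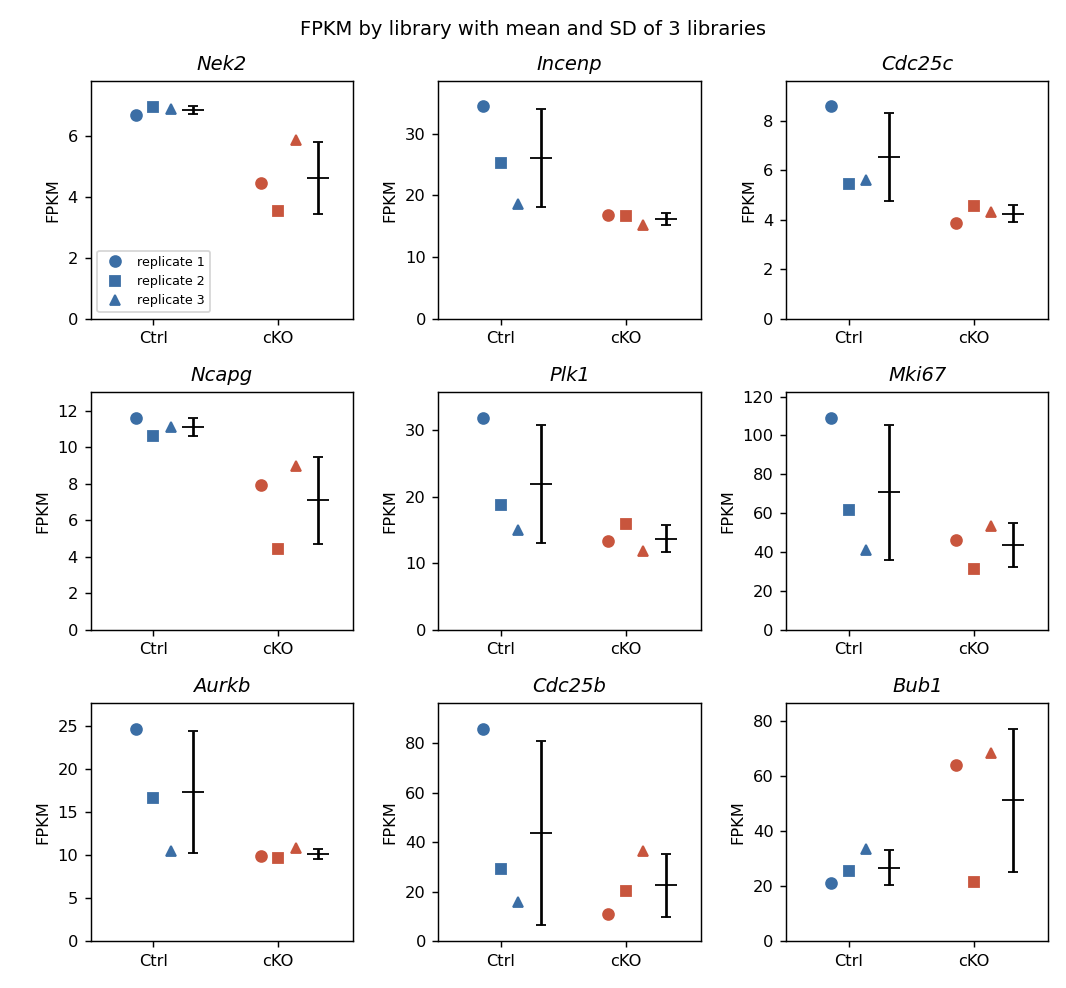
FPKM of 9 of the genes in each library (symbols by replicate number, Ctrl blue and cKO red) with the mean and SD of each group of 3 (black bars). *Nek2*, *Incenp*, *Cdc25c* and *Ncapg* do not overlap between groups, and *Bub1* is high in cKO 1 and cKO 3 but not in cKO 2.

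The genes of the spindle checkpoint and the anaphase-promoting complex divided into 3 above and 3 below 0, with none past the limit. *Bub1* (ENSMUSG00000027379, chr2:127801122-127831865, minus strand), a checkpoint kinase at the kinetochore, had the largest log2 fold change of all 39 genes, 0.77 ± 0.44 (standard error, limma, unadjusted p = 0.124, adjusted p = 0.978). It measured 21.2, 25.3 and 33.5 FPKM in Ctrl and 63.9, 21.3 and 68.4 FPKM in cKO. Levels in cKO 1 and cKO 3 were about alike and above all Ctrl libraries, whereas cKO 2 was at the level of Ctrl 1. Without cKO 2 the log2 fold change ± standard error was 1.30 ± 0.20 (limma, unadjusted p = 0.000854, adjusted p = 0.170), and the lowest adjusted p of *Bub1* over all settings was the same 0.170. Without cKO 3 the log2 fold change was 0.49 and did not pass.

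*Ube2c*, the ubiquitin-conjugating enzyme of the anaphase-promoting complex and the most highly expressed of this group, measured 85.7, 33.9 and 25.2 FPKM in Ctrl and 19.1, 29.3 and 56.9 FPKM in cKO. Its levels overlapped between groups, and its order over the libraries was that of *Cdc25b*. *Cdc20*, the activator of the complex, had a log2 fold change of -0.30, and *Bub1b*, *Ttk* and *Mad2l1*, which belong to the checkpoint, of -0.11, 0.04 and 0.00.

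Of the centromere and kinetochore genes 4 of 5 were below 0 and none passed the limit. *Cenpa*, the histone variant of centromeres and the most highly expressed of them, measured 17.6, 14.01 and 9.48 FPKM in Ctrl and 10.1, 11.3 and 13.4 FPKM in cKO, with a log2 fold change of -0.19. *Cenpf*, which links kinetochores to microtubule motors, measured 8.68, 8.40 and 11.8 FPKM in Ctrl and 18.2, 7.36 and 16.7 FPKM in cKO, with a log2 fold change of 0.43. As for *Bub1*, cKO 1 and cKO 3 were above all Ctrl libraries and cKO 2 was lowest among cKO. *Nuf2*, a subunit of the NDC80 complex that grips microtubules, was 10.03, 7.82 and 7.64 FPKM in Ctrl and 7.12, 5.14 and 7.58 FPKM in cKO. Its groups did not overlap, by a margin of less than 1 FPKM between Ctrl 3 and cKO 3, and its log2 fold change was -0.33 (limma, unadjusted p = 0.109). *Cenpe* and *Ndc80*, a kinetochore motor and the partner of *Nuf2*, had log2 fold changes of -0.36 and -0.32.

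The spindle motors and microtubule proteins had 5 of 6 genes below 0, from -0.57 to 0.01, and none past the limit. *Kif11*, the motor that pushes spindle poles apart and the most highly expressed of them, measured 42.1, 23.9 and 20.003 FPKM in Ctrl and 28.5, 17.9 and 28.05 FPKM in cKO. *Nusap1*, which bundles spindle microtubules, measured 42.5, 20.6 and 16.2 FPKM in Ctrl and 13.1, 14.4 and 21.7 FPKM in cKO. Both were highest in Ctrl 1, and their log2 fold changes were -0.16 and -0.57. For *Hmmr*, *Kif4*, *Kif2c* and *Tpx2* the log2 fold changes were -0.17, -0.21, -0.18 and 0.01.

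The central spindle and cytokinesis genes had 3 of 5 below 0 and none past the limit. *Kif20a*, a motor that brings *Plk1* protein to the central spindle, was 15.5, 15.2 and 15.6 FPKM in Ctrl and 14.2, 11.6 and 12.4 FPKM in cKO. The Ctrl libraries were almost equal and all cKO libraries were lower, by a log2 fold change ± standard error of -0.26 ± 0.12 (limma, unadjusted p = 0.0595). *Kif23*, a motor of the centralspindlin complex, measured 13.1, 8.998 and 10.4 FPKM in Ctrl and 17.8, 9.91 and 19.0 FPKM in cKO, a log2 fold change of 0.45. cKO 1 and cKO 3 again lay above all Ctrl libraries. *Prc1*, *Anln* and *Ect2*, which bundle the midzone, shape the furrow and activate RhoA, had log2 fold changes of -0.32, -0.02 and 0.15.

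The 3 genes of chromosome structure and surface were all lowest in cKO 2. *Mki67* (ENSMUSG00000031004, chr7:135689784-135716361, minus strand), which coats mitotic chromosomes and serves as a marker of dividing cells, measured 109 FPKM, 61.6 FPKM and 41.3 FPKM in Ctrl and 45.99, 31.4 and 53.5 FPKM in cKO. Ctrl 1 stood far above the rest, and Ctrl 3 lay below cKO 1 and cKO 3. The mean was 70.7 ± 34.8 FPKM in Ctrl and 43.6 ± 11.2 FPKM in cKO (SD, n = 3 each). For this gene the log2 fold change ± standard error was -0.60 ± 0.37 (limma, unadjusted p = 0.143, adjusted p = 0.978), and without Ctrl 1 it was -0.24. Without cKO 2 it was -0.39, and without Ctrl 3 it was -0.93 (limma, unadjusted p = 0.0284).

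*Ncapg* (ENSMUSG00000015880, chr5:45669919-45700546, plus strand), a condensin I subunit that compacts chromosomes, measured 11.6, 10.6 and 11.1 FPKM in Ctrl and 7.94, 4.41 and 8.96 FPKM in cKO. The Ctrl libraries were close together and all above cKO, of which cKO 2 was lowest. The mean was 11.1 ± 0.494 FPKM in Ctrl and 7.11 ± 2.39 FPKM in cKO (SD, n = 3 each). For this gene the log2 fold change ± standard error was -0.63 ± 0.23 (limma, unadjusted p = 0.0316, adjusted p = 0.978). The unadjusted p was 0.0774, 0.0635 and 0.0674 without Ctrl 1, Ctrl 2 and Ctrl 3, and below the limit without each cKO library, although the log2 fold change was -0.36 without cKO 2. *Top2a*, the topoisomerase that untangles sister chromatids, measured 58.8, 41.3 and 40.8 FPKM in Ctrl and 56.6, 30.9 and 58.9 FPKM in cKO, with a log2 fold change of 0.02.

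*Foxm1*, the transcription factor that acts on the promoters of many of these genes, measured 10.6, 10.7 and 10.6 FPKM in Ctrl and 9.50, 8.90 and 10.4 FPKM in cKO. The groups did not overlap, and the log2 fold change ± standard error was small, -0.14 ± 0.11 (limma, unadjusted p = 0.244). The exact permutation test, two-sided, gave p = 0.1 for the 7 genes whose groups did not overlap, the smallest value it can give with 3 libraries against 3.

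**Figure D4:**
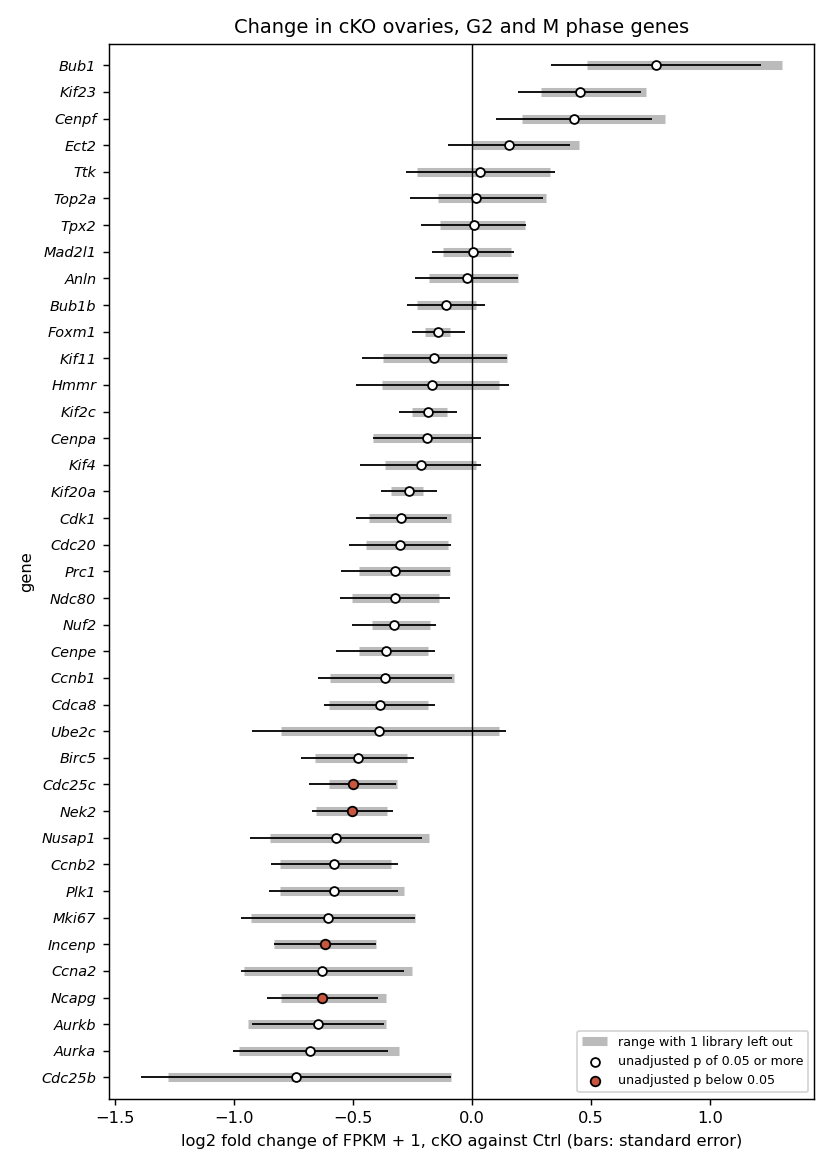
Log2 fold change of FPKM + 1 in cKO against Ctrl for the 39 genes, with its standard error (black lines) and the range of values with 1 library left out (grey bars), the 4 genes past the unadjusted limit being filled. Values run from -0.74 for *Cdc25b* to 0.77 for *Bub1*, with 31 of 39 below 0.

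Genes with and without a CHR match were both mostly below 0. The 23 genes with TTTGAA in the window had a median log2 fold change of -0.21, with 18 below 0. The 9 genes with a window and no TTTGAA had a median of -0.37, with 7 below 0, and *Nek2* and *Bub1* were among them. The 7 genes with no window had a median of -0.50, with 6 below 0. These medians were not tested against each other.

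Of the genes past the unadjusted limit, *Ncapg*, *Cdc25c* and *Nek2* share exon bases with a gene on the other strand in GENCODE M21. The shared part is 13.4% of the exon bases for *Ncapg* with *Lcorl* and 6.60% for *Nek2* with *Gm38037*, and for *Plk1* with *Gm44985* it is 7.09%. *Cdc25c* shares bases with *Gm3550* and *Kif20a* with *Cdc23*, but the deposited positions of both genes differ from GENCODE M21, so no share is given. No source used here says whether counting used the strand, so reads in these parts cannot be told apart. This touched 13 of the 39 genes by the GENCODE M21 exons. On the same strand, *Foxm1* shares 2.5% of its exon bases with *Tex52* and 1.69% with *Gm44596*, and *Top2a* 1.35% with *Gm23451*. Pseudogenes of *Ccnb2*, *Ccnb1* and *Kif4* were listed at mean levels of 3.03, 0.757 and 0.0096 FPKM, and how reads were shared between gene and copy is uncertain. Among the 39 genes, the study lists changed splicing in cKO ovaries for *Ncapg* and *Mki67*. Of genes named below, it also lists *Haus8* and *Ccnb3*. FPKM of a whole gene does not separate its spliced forms.

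Markers of the cell types in an ovary also differed between libraries, and their values are given beside those of the 39 genes. Erythroid markers, which mark foetal red blood cells, summed to 23557 FPKM, 8066 FPKM and 4933 FPKM in Ctrl 1 to 3 and 1756 FPKM, 10526 FPKM and 10026 FPKM in cKO 1 to 3. They were highest in Ctrl 1 for 12 of 14 markers, and none was at 0 in any library. Of the 14, 12 had a log2 fold change below 0 and the median was -0.92. None was lower at the unadjusted limit, beside 1.75% of all genes. *Hbb-y*, an embryonic globin, was the 1 marker past the limit, beside 2.68% of all genes higher. It was higher in cKO with a log2 fold change of 2.10. *Cdc25b* and *Ube2c*, the members that spread most, were likewise highest in Ctrl 1 and lowest in cKO 1. These 2 were singled out after their values were seen, and 7 of the 39 genes were lowest in cKO 1. In cKO 2, where the 39 genes were lowest, erythroid markers were near their mean (0.07 on the centred log2 scale). The part of blood cells in the levels of the 39 genes was not tested.

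Meiotic prophase markers, which mark oocytes, ran another way. They summed to 300.6, 514.4 and 871.1 FPKM in Ctrl 1 to 3 and 1075, 435.5 and 1065 FPKM in cKO 1 to 3, with 17 of 20 lowest in Ctrl 1 and none at 0 in any library. Of the 20, 16 had a log2 fold change above 0, and the median was 0.78 beside -0.01 for all genes tested. At the unadjusted limit 4 of the 20 were higher in cKO, beside 2.68% of all genes. Their log2 fold changes ran from 0.84 for *Syce2* to 2.06 for *Stra8*, whose promoter drives the Cre of the cKO mice. *Bub1*, *Cenpf*, *Kif23* and *Ect2*, singled out after their values were seen, were likewise highest in cKO 1 and cKO 3. Without cKO 2 these 4 genes passed the unadjusted limit as higher in cKO, as did 1457 of all genes (8.48%). Germ cell markers summed to 96.4, 185.6 and 343.5 FPKM in Ctrl and 408.9, 174.1 and 451.6 FPKM in cKO. At the limit 2 of 14 were higher and 1 lower, beside 2.68% and 1.75% of all genes. The part of germ cells in these levels was not tested.

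Markers of the somatic cells varied less. Pregranulosa markers summed to between 703 and 815 FPKM in Ctrl and between 669 and 931 FPKM in cKO. None was at 0 in any library, and 7 of 13 were highest in cKO 2. In limma 0 of the 13 passed the limit, beside 2.68% of all genes higher and 1.75% lower. Stroma markers summed to between 707 and 889 FPKM in Ctrl and between 693 and 772 FPKM in cKO. Endothelium markers summed to between 91.4 and 118 FPKM in Ctrl and between 89.5 and 111 FPKM in cKO, and macrophage markers to between 46.2 and 53.6 FPKM in Ctrl and between 34.4 and 56.7 FPKM in cKO. No marker of these 3 lists passed the unadjusted limit, beside the same 2.68% and 1.75% of all genes. Outside the somatic lists, 8 of 13 mitotic germ cell markers were tested and 2 were higher at the limit, beside 2.68% of all genes. Of the 8 tested, 7 had a log2 fold change above 0, and the median was 0.59. The 13 markers summed to 5.48 to 20.7 FPKM in Ctrl and 12.3 to 36.8 FPKM in cKO. *Prdm14*, *Nanos2* and *Tcl1* were at 0 in at least 1 library. Of 8 mesonephros epithelium markers 5 were tested and none passed, beside 2.68% of all genes higher and 1.75% lower. The 8 markers summed to 67.4 to 80.3 FPKM in Ctrl and 65.0 to 83.6 FPKM in cKO.

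**Figure D5:**
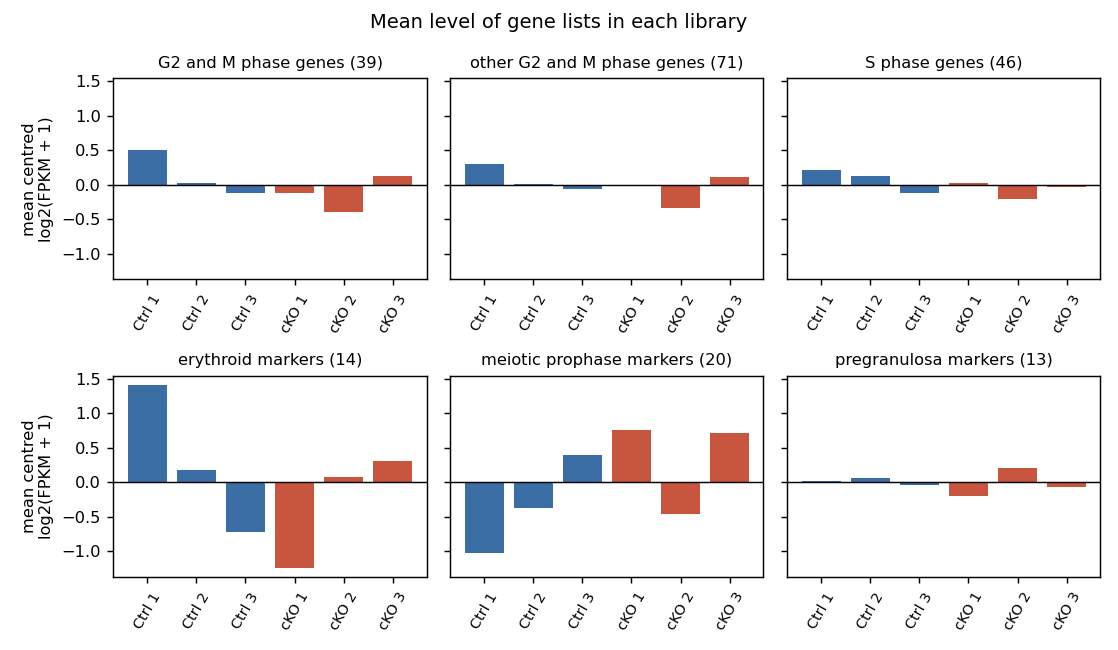
Mean level of 6 gene lists in each library (Ctrl blue, cKO red) as log2(FPKM + 1) centred on each gene's mean over the 6 libraries. The 39 genes are highest in Ctrl 1 at 0.50 and lowest in cKO 2 at -0.40, erythroid markers are highest in Ctrl 1 at 1.41 and lowest in cKO 1 at -1.24, and meiotic prophase markers are lowest in Ctrl 1 at -1.03.

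A further list of 71 G2 and M phase genes, none of them among the 39, showed the same order of libraries. Its highest mean level was in Ctrl 1 and its lowest in cKO 2, with 38 and 49 of 71 genes at their highest and lowest there. At the unadjusted limit 9 were lower (12.7% beside 1.75% of all genes) and 2 higher (beside 2.68% of all genes), 55 were below 0 (77.5% beside 52.1% of all genes) and the median was -0.16. The spindle motors *Kif18b* and *Kifc1* had log2 fold changes of -0.75 and -0.76, and *Pkmyt1*, the kinase that restrains CDK1, of -0.73. *Kif18b* measured 17.5, 12.0 and 10.6 FPKM in Ctrl and 7.84, 6.61 and 7.65 FPKM in cKO. *Pkmyt1* measured 10.3, 8.27 and 8.22 FPKM in Ctrl and 3.98, 5.25 and 5.82 FPKM in cKO. In both genes every cKO library lay below every Ctrl library. The other lower genes were *Kif22*, *Spc24*, *Nsl1*, *Troap*, *Gtse1* and *Cdca2*, with log2 fold changes from -0.54 to -0.34. The 2 higher genes were *Haus8*, of the augmin complex that branches microtubules, at 0.72 and *Pimreg* at 0.39.

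*Haus8* measured 6.43, 7.29 and 6.55 FPKM in Ctrl and 14.8, 9.96 and 11.0 FPKM in cKO. All cKO libraries were above Ctrl, with cKO 1 highest.

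Of 46 S phase genes, which replicate DNA, 34 were below 0 (73.9%) with a median of -0.16. At the unadjusted limit of limma 2 were lower (4.35% beside 1.75% of all genes) and 0 higher (beside 2.68% of all genes). *Uhrf1*, which maintains DNA methylation, had a log2 fold change of -0.46 and *Rfc5*, a clamp loader subunit, of -0.28. Among 22 regulators of G2 and M transcription only *Mybl2*, the gene of B-MYB, passed the limit (4.55% beside 1.75% of all genes lower). It measured 12.6, 11.8 and 5.86 FPKM in Ctrl and 5.81, 5.70 and 5.49 FPKM in cKO, a log2 fold change of -0.67. Ctrl 3 was at the level of the cKO libraries, so that the difference lay with Ctrl 1 and Ctrl 2. *E2f2* had a log2 fold change of -1.17 that did not pass, and *E2f8*, which did not pass either, measured 15.8, 8.09 and 3.96 FPKM in Ctrl and 2.70, 3.65 and 4.48 FPKM in cKO.

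Among 7 CDK inhibitors *Cdkn2a*, which restrains entry into S phase, was higher in cKO at the unadjusted limit, beside 2.68% of all genes. None was lower. It measured 3.24, 2.42 and 5.18 FPKM in Ctrl and 10.8, 9.25 and 16.0 FPKM in cKO, a log2 fold change ± standard error of 1.51 ± 0.27 (limma, unadjusted p = 0.000986, adjusted p = 0.978). All cKO libraries, cKO 2 included, lay above all Ctrl libraries. *Cdkn2c* measured 15.4, 11.5 and 6.48 FPKM in Ctrl and 4.62, 6.50 and 7.21 FPKM in cKO, with a log2 fold change of -0.72 that did not pass. Of 24 relatives of the 39 genes, such as other cyclins, Polo-like and NIMA-related kinases, 20 were tested. In limma 0 of them passed in either direction, beside 2.68% of all genes higher and 1.75% lower. *Ccnb3*, a cyclin of meiosis, measured 3.62, 15.7 and 23.9 FPKM in Ctrl and 6.33, 1.98 and 7.19 FPKM in cKO. The groups overlapped, and the log2 fold change was -1.14.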

How the data were processed

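RNA of whole ovaries at 16.5 dpc was sequenced in 3 Ctrl and 3 cKO libraries, grouped by the sample labels. The tissue field and the study's methods name ovary, while the extraction text in the labels speaks of another tissue. The authors aligned reads with HISAT2 2.0.5 to mm10, counted reads on genes with featureCounts, and deposited values in FPKM. The annotation release and strand setting were not stated in any source used here. Dividing out gene length gave whole reads for all FPKM values (tolerance 0.05 read), with 14212164 to 16784241 reads on genes per library, and the 39 genes had 116 to 16470 reads per library. The authors tested counts with DESeq2. Here limma 3.58.1 in R 4.3.3 was fitted to log2(FPKM + 1) with an intensity trend, two-sided, on the 17180 genes whose mean FPKM was 0.5 or more. This scale understates the change of low genes. Adjusted p-values are Benjamini-Hochberg values over all genes tested. Single genes also had an exact permutation test. The limma fit was also run on simulated data with known changes. Genes varied independently there, so shifts shared by many genes within a library were not covered.

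The 39 genes, the other lists and the promoter motifs were chosen with earlier results of these data known, and no list was tested as a whole. Of the 39 genes, full statistics are given for *Plk1*, *Mki67*, those past an unadjusted p below 0.05 and the 5 with the largest log2 fold change in either direction. In each role group the most highly expressed gene and the gene with the largest change are named, and the others by their log2 fold change. Of other lists, genes past the limit and the 2 with the largest change may be named. Alternatives were pseudocounts of 0.1 and 0.5, other minimum levels, median-ratio scaling, quantile normalization, voom on recovered reads, no trend, protein-coding genes alone, a replicate block and each library left out. Python 3.11.15, pandas 2.3.3 and matplotlib 3.10.9 were used. Promoters and their start sites are RefSeq's on GRCm38.p6, and gene positions are those of the deposited table.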

Additional observations from a re-analysis of the deposited data

How the results depend on the processing

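Of the 39 genes 4 were lower in the main fit. Pseudocounts, minimum levels, median-ratio scaling, quantile normalization, voom, no trend, protein-coding genes alone and the replicate block gave 3 to 6 lower and 0 higher. This was 7.69% to 15.4% of the 39 lower, beside 1.44% to 1.87% of all genes in these fits. Between 2.18% and 2.77% of all genes were higher. The same 4 were among the lower genes except under the block, where 3 remained. The median of the 39 genes ran from -0.36 to -0.30 under these settings. With 1 library left out the lower count ran from 1 to 10, the higher count from 0 (without each library but cKO 2) to 4, without cKO 2, and the median from -0.43 to -0.11. The lower count was 1 when Ctrl 1 or Ctrl 2 was dropped and 10 when Ctrl 3 was. It was 2, 4 and 4 on dropping cKO 1, cKO 2 and cKO 3. Among all genes 2.22%, 0.949% and 3.66% were lower without Ctrl 1, Ctrl 2 and Ctrl 3. Without cKO 1, cKO 2 and cKO 3 the share was 1.23%, 6.03% and 1.08%. The cause was not tested. Where a group keeps 2 libraries, the test has fewer of them. Over all genes, 736 were higher and 595 lower with no minimum FPKM, where 33797 genes were tested. Left-out libraries gave 201 to 1457 higher and 163 to 1036 lower. Without Ctrl 1, 4 genes passed at an adjusted p below 0.05, none of them among the 39, with a smallest adjusted p of 0.00129 against 0.0709 to 0.989 in the settings that keep all libraries.

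The labels do not say whether replicate numbers pair the libraries. Correlations of same-numbered Ctrl and cKO libraries' deviations from their group means were -0.39, -0.03 and 0.12. Between libraries with different numbers they ran from -0.34 to 0.35. Taking out the group means ties these correlations to each other, so they cannot decide whether the libraries were paired. With the replicate block 3 of the 39 genes (7.69%) were lower, 0 were higher and the median was -0.32. Over all genes 434 (2.53%) were higher and 247 (1.44%) lower in that fit. At this depth all 39 genes had at least 116 reads in each library, and counting error was not separated from the spread between libraries.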
